A study of Mus musculus with 6 samples.

Results

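The mitochondrial ribosomal protein genes were taken as every gene whose name on the array starts with Mrpl or Mrps followed by digits. The array carried 76 such genes on 101 probes, and 75 of them, on 100 probes, had a probe whose signal cleared the local background on each of the 3 arrays of a group. These 75 genes are the members described here, among 19575 genes or unnamed transcripts measured by the same criterion, and all 75 cleared background on every one of the 6 arrays. The gene left out was Mrpl21, whose single probe did so on 0 of 6 arrays. The rule used names and detection only, so it did not depend on how the genes differed between the groups. Of the members, 48 encode proteins of the large subunit, 26 encode proteins of the small subunit and Mrps36 was counted apart. Mrps18a and Mrps30 were counted with the large subunit, where their proteins sit despite their names.

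Bone marrow-derived macrophages of C57BL/6 mice were cultured for 7 days in RPMI 1640 with 10% FBS and 20% L929-conditioned medium, which supplies M-CSF, the growth factor that drives macrophage differentiation. Cells in 3 samples (ADP) then received 100 µM ADP, a nucleotide that damaged or activated cells release, for 6 h, and cells in 3 samples (control) received the control treatment for the same time. Each of the 3 experiments was independent and used other donors, and sex and age are not given in the labels. Total RNA from each sample was hybridised to one single-colour Agilent array. The question was which transcripts differ in macrophages exposed to extracellular ADP.

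Mitochondria make the few proteins encoded in their own genome on a dedicated ribosome, the mitoribosome, which descends from that of bacteria. Its RNAs come from mitochondrial DNA, whereas all of its proteins are encoded in the nucleus, made in the cytosol and imported. Some of these proteins have bacterial homologues and others are found only in mitochondria. The products of mitochondrial translation are core subunits of the respiratory chain and ATP synthase, and macrophages are known to shift between oxidative metabolism and glycolysis when activated.

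Levels are log2 signal minus the array's own 75th percentile, so that 0 is that percentile and a step of 1 is a 2-fold step in signal. Differences are ADP minus control on the same scale with the standard error of the fit. They were tested with limma over all 19575 features, and a call is a Benjamini-Hochberg adjusted p under 0.05. Levels of different genes were not ranked, because probes differ in how brightly they hybridise.

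The 6 arrays were alike in the share of spots detected. Per array, between 50.3% and 51.9% of 59305 spots were flagged well above background, and no spot was saturated. All 8 macrophage markers examined, among them Adgre1, Csf1r and Itgam, were well above background on every array. Their differences ran from −0.61 (Mertk) to 0.79 (Cd14) with a median of 0.28, and these 2 had unadjusted p under 0.05. Their limma adjusted p were 0.29 and 0.26, the second equal to the smallest of all features. Of 18 measured markers of other cells, S100a8 of neutrophils (0.32) and Ctsk of osteoclasts (0.29) had unadjusted p under 0.05, 0 were called, and all 18 lay between −0.25 and 0.84. Of all features, 12.7% passed that unadjusted threshold. All 5 measured neutrophil markers of 8 listed were above 0, by 0.12 to 0.47. None of the 4 erythroid markers was measured, and whether other cells had a part in the results was not tested. In bulk RNA, a different share of cells and a different amount of RNA per cell cannot be told apart. The arrays were read on 2 slides, each of which held both groups. Each slide had its own scan date, so slide and scan cannot be told apart. Slide 1 held ADP replicate 1 with controls 1 and 2, and slide 2 held ADP replicates 2 and 3 with control 3. Before scaling, slide 2 was brighter. In these orders, the 75th percentile of signal was 455, 455 and 464 on slide 1 and 545, 549 and 549 on slide 2.

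Transcripts of the mitochondrial ribosomal proteins stood close to their control level after 6 h of ADP. The median difference of the 75 genes was 0.0225, beside 0.0044 over all features, and 41 of the 75 were above 0, against 50.8% of all features. A median this near 0 had no settled sign, since it was −0.0032 with median scaling and 0.0999 in unscaled signal, where the medians of all features were −0.0214 and 0.0818. Leaving out 1 array at a time gave −0.0272 (31 of 75 above 0, without control replicate 2) to 0.071 (54 of 75, without control replicate 3). By array, the median level of the members was 3.72, 3.69 and 3.77 with ADP, against 3.65, 3.54 and 3.77 in control cells, so the groups overlapped. No member was called at an adjusted p under 0.05, and over all features the share called was 0.0%. The smallest adjusted p of any member was 0.36 with limma, for Mrpl33, which was also the only member with an unadjusted p under 0.05. That is 1.33% of the members, where 12.7% of all features passed the same unadjusted threshold, 6.55% as higher and 6.18% as lower.

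The differences were small in either direction. They ranged from −0.44 for Mrpl17 to 0.34 for Mrpl39, and no member differed by as much as 0.5, against 9.62% of all features. The median size of the difference, whatever its sign, was 0.0738 for the members and 0.1562 for all features. Spread between replicates was also smaller. The median SD of a member was 0.0904 among ADP arrays and 0.1193 among control arrays, where over all features it was 0.1772 and 0.1816. The members were also brighter, with median levels of 3.54 to 3.77 by array, against 0.54 to 0.58 over all features. Small spread was not particular to them. The SDs were 0.117 and 0.1109 for respiratory chain and ATP synthase genes, though 0.2186 and 0.2015 for cytosolic ribosomal protein genes. Whether brightness accounts for the small values was not tested. For 74 of the 75 members the 95% interval of the difference lay within 1 unit of 0, the exception being Mrpl17, and for 54 it lay within 0.5. Of all 19575 features, 16602 and 8156 met these limits. The intervals therefore bound most members to less than a 2-fold difference, but an interval that includes 0 does not show that a level was the same.

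**Figure D1:**
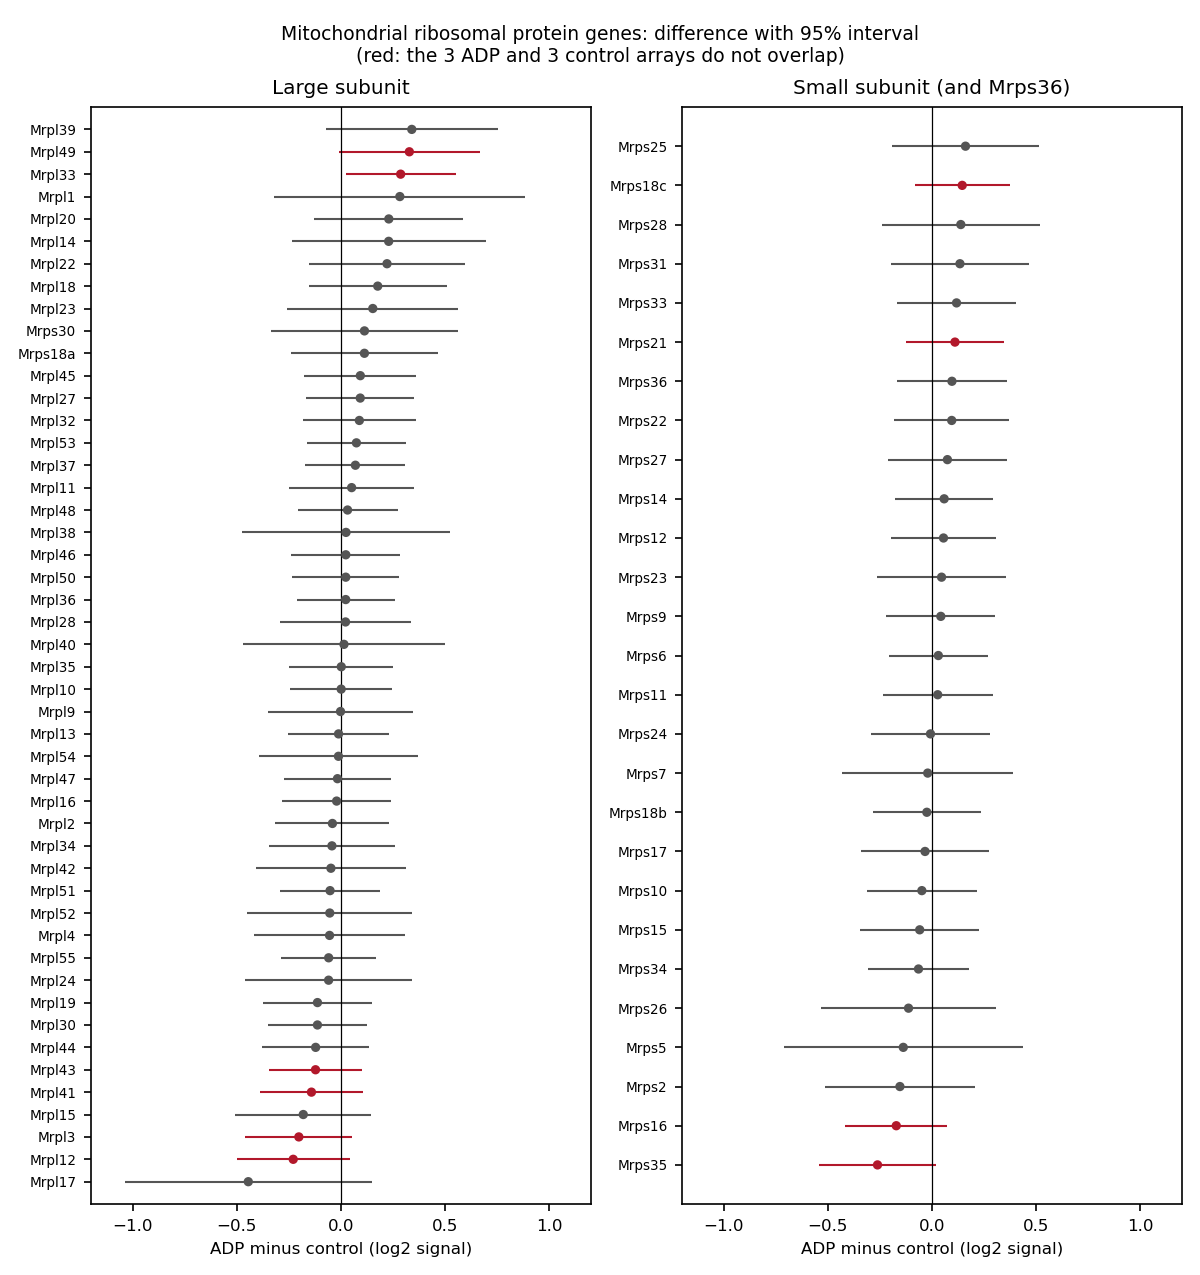
Difference of each mitochondrial ribosomal protein gene, ADP minus control, in log2 signal (x axis), with its 95% interval from the fit as a horizontal line. Large-subunit genes are on the left and small-subunit genes with Mrps36 on the right. The 10 genes in red are those whose 3 ADP and 3 control arrays did not overlap, and points run between −0.44 (Mrpl17) and 0.34 (Mrpl39).

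The groups did not overlap for 10 members, 4 of them higher with ADP (Mrpl33, Mrpl49, Mrps18c and Mrps21) and 6 lower (Mrpl12, Mrpl3, Mrpl41, Mrpl43, Mrps16 and Mrps35). This is 13.3% of the members, beside 19.4% of all features, of which 9.67% were higher and 9.72% lower. Every member carries a standard error from the same 6 arrays, and the median standard error of the members was 0.1149.

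The medians of both subunits lay near 0. Among the 48 large-subunit genes the median difference was 0.0084 and 26 were above 0. Among the 26 small-subunit genes it was 0.0287 and 14 were above 0. With median scaling these medians were −0.0174 and 0.0029. Split by origin, the medians were 0.0015 for 29 large-subunit genes with bacterial homologues, 0.0235 for 19 large-subunit genes found only in mitochondria, −0.0074 for 17 small-subunit genes with bacterial homologues and 0.0738 for 9 small-subunit genes found only in mitochondria. Mrpl47 (−0.0162) was counted among the 19, although its protein is a homologue of bacterial L29, so that class is not purely mitochondrial. No difference between these classes was tested.

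Of the large-subunit genes, Mrpl33, homologue of a small bacterial protein of the large subunit, had the smallest p. Its levels were 6.11, 6.22 and 6.36 on the 3 ADP arrays, against 5.88, 5.96 and 5.99 on the 3 control arrays. All ADP arrays were above all control arrays. The means were 6.23 ± 0.13 with ADP and 5.95 ± 0.0563 in control cells (SD, n = 3 each), a difference of 0.29 ± 0.11 with a 95% interval of 0.0235 to 0.55 (limma, unadjusted p = 0.037, adjusted p = 0.36). It was 0.19 within slide 1 and 0.30 within slide 2. Its probe lies at chr5:31924925-31924984 on the plus strand of mm9, the build of all probe coordinates here. The exons and untranslated regions of that build were not used here, so the part of the transcript that a probe reads is given by position alone.

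Mrpl49 and Mrpl39 are proteins of the large subunit that bacteria lack. Mrpl49 read 2.29, 2.26 and 2.55 with ADP, against 1.90, 1.97 and 2.24 in control cells. The lowest ADP array was just above the highest control array. The difference was 0.33 ± 0.14 (limma, adjusted p = 0.41). Mrpl39 read 2.90, 3.18 and 3.32 with ADP, against 2.63, 2.69 and 3.07 in control cells. Here the first ADP array lay below the third control array, so the groups overlapped. Without a block, the Mrpl39 difference of 0.34 ± 0.17 was the highest of the 75 (adjusted p = 0.49). With the slide block it was 0.21 (limma, unadjusted p = 0.0417, adjusted p = 0.19), below Mrpl49 at 0.26 and Mrpl33 at 0.25. Within slides 1 and 2 Mrpl39 differed by 0.24 and 0.18. Both genes were read on a second probe, described further on, that did not show the difference.

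Mrpl17 had the lowest difference and the widest standard error of the named members. Its protein lies, with those of Mrpl22, Mrpl23 and Mrpl24, around the exit of the tunnel through which the new chain leaves the ribosome. Mrpl17 read 1.61, 2.23 and 2.05 with ADP, against 2.36, 2.04 and 2.82 in control cells. Control replicate 2 read below ADP replicates 2 and 3, so the groups overlapped. The fitted difference was −0.44 ± 0.25 with an interval of −1.04 to 0.15 (adjusted p = 0.54). Within the slides, however, it was lower with ADP on both, by similar amounts, −0.59 on slide 1 and −0.68 on slide 2. With the slide as a block the difference was −0.64 (limma, unadjusted p = 0.00242, adjusted p = 0.07345). No feature of the 19575 had a smaller adjusted p in that fit. The value was shared, among others by a macrophage marker, so it does not rank Mrpl17 first. With the block and with trended and robust variances Mrpl17 was called (adjusted p = 0.021), the only member to be called under any of the settings tried. That fit called 9.91% of all features, against 1.33% of the members. Its probe lies at chr7:112958345-112958404, minus strand.

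Other genes of the tunnel exit had values on either side of 0, and Mrpl24 lay on the same side as Mrpl17 on both slides. Mrpl22, homologue of a bacterial protein that lines the tunnel, read 4.11, 4.48 and 4.43 with ADP, against 4.02, 3.98 and 4.34 in control cells, a difference of 0.22 ± 0.16 (adjusted p = 0.64). The groups overlapped, and on both slides the ADP value was higher, by 0.10 and 0.11. Mrpl24 differed by −0.0588 ± 0.17, by −0.18 with the slide block (unadjusted p = 0.0657), and by −0.15 and −0.22 within slides 1 and 2. Mrpl23 differed by 0.15 ± 0.17, and by 0.0247 with the slide block. Mrpl45, which helps to hold the ribosome to the inner membrane, differed by 0.0935 ± 0.11, and by 0.14 with the slide block. None of these 4 genes had an unadjusted p under 0.05 in either fit.

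The stalk of the large subunit recruits the translation factors. Mrpl12, the stalk protein, which is also known to bind the mitochondrial RNA polymerase, read 4.07, 4.04 and 4.07 with ADP, against 4.27, 4.15 and 4.44 in control cells. The 3 ADP arrays lay close together below all control arrays. The difference was −0.23 ± 0.11 (limma, unadjusted p = 0.0859, adjusted p = 0.48), and it was −0.14 on slide 1 and −0.39 on slide 2. Mrpl10, which anchors the stalk, differed by 0.0015 ± 0.10, and Mrpl11, at the stalk base, by 0.0517 ± 0.12. With the slide block Mrpl12 stood at −0.27, Mrpl10 at −0.0131 and Mrpl11 at −0.0208, so the signs of Mrpl10 and Mrpl11 were not settled.

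Mrpl3, whose bacterial homologue reaches towards the peptidyl transferase centre and which is mutated in an inherited cardiomyopathy, read 3.90, 4.09 and 3.88 with ADP, against 4.19, 4.11 and 4.18 in control cells. The groups did not overlap, though the margin was narrow. The difference was −0.20 ± 0.11 (adjusted p = 0.51). Mrpl41 and Mrpl43, found only in mitochondria, were lower by smaller amounts, with differences of −0.14 ± 0.10 and −0.12 ± 0.0936 and without overlap between groups (adjusted p = 0.65 and 0.67). Mrpl15, with a bacterial homologue, overlapped between groups and differed by −0.18 ± 0.14 (adjusted p = 0.66).

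Among the remaining large-subunit genes with positive values, Mrpl20, whose bacterial homologue is an early assembly protein, read 5.62, 5.92 and 6.04 with ADP, against 5.54, 5.56 and 5.80 in control cells. The values followed the slides more than the groups, since ADP replicate 1 lay with the first 2 controls and the third control lay with ADP replicates 2 and 3. The difference was 0.23 ± 0.15 (adjusted p = 0.61). Mrpl14, which contacts the small subunit and holds an assembly factor before the subunits join, behaved alike, with 5.15, 5.58 and 5.72 in ADP cells, against 5.10, 5.13 and 5.53 in control cells, and a difference of 0.23 ± 0.19 (adjusted p = 0.70). Mrpl18, whose bacterial homologue binds the smallest ribosomal RNA, differed by 0.18 ± 0.14 (adjusted p = 0.68). The large-subunit proteins Mrps30 and Mrps18a differed by 0.11 ± 0.19 and 0.11 ± 0.15, and in both the sign was not the same on the 2 slides.

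**Figure D2:**
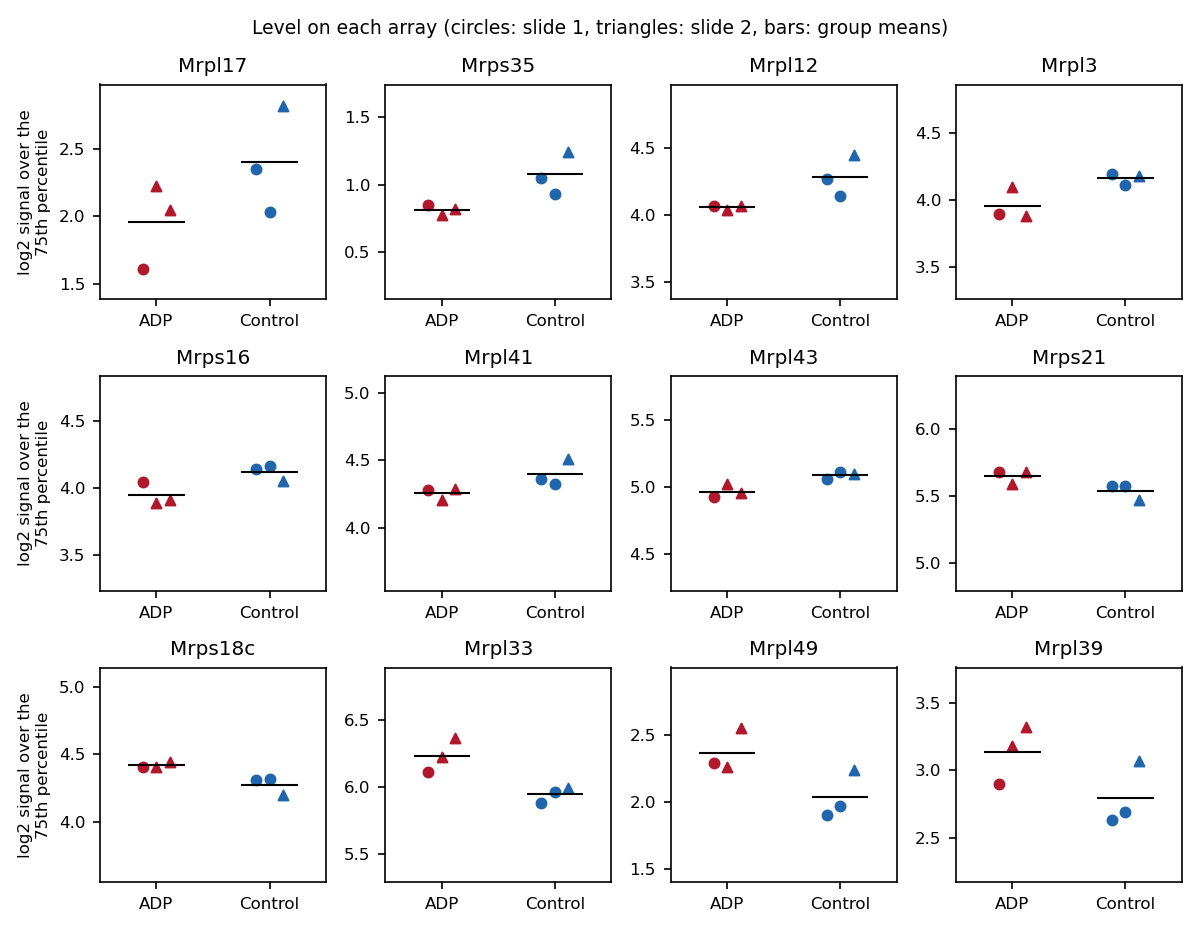
Level on each array (y axis, log2 signal over the 75th percentile) for 12 genes, with the 3 ADP arrays on the left in red and the 3 control arrays on the right in blue. Circles are slide 1, triangles slide 2 and horizontal bars group means; all panels span the same number of log2 units. In Mrpl17 and Mrpl39 the groups overlap, while in the other 10 genes they do not, with differences between −0.26 (Mrps35) and 0.33 (Mrpl49).

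In the small subunit, Mrps35, found only in mitochondria, had the smallest p. It read 0.84, 0.78 and 0.82 with ADP, against 1.05, 0.93 and 1.25 in control cells. The ADP arrays were tightly grouped and lay below all controls. The difference was −0.26 ± 0.12 with an interval of −0.54 to 0.0178 (limma, unadjusted p = 0.0622, adjusted p = 0.43), and it was −0.15 on slide 1 and −0.45 on slide 2. The 60-base probe reads spliced RNA, since the deposited coordinates of its bases span chr6:147009999-147019119 on the plus strand, far longer than the probe itself. It is printed as the probe of the small-subunit gene with the smallest p.
Mrps35 probe: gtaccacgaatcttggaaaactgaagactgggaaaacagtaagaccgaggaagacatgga

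Mrps16, homologue of a bacterial protein of the small-subunit body, read 4.05, 3.89 and 3.91 with ADP, against 4.14, 4.17 and 4.05 in control cells. The highest ADP array lay just below the lowest control array. The difference was −0.17 ± 0.10 (adjusted p = 0.57). Mrps21, homologue of a small bacterial protein of this subunit, was higher without overlap by 0.11 ± 0.0972 (adjusted p = 0.72).

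The 3 genes related to bacterial S18 have diverged in the animal mitoribosome, where Mrps18b and Mrps18c occupy the small subunit and Mrps18a the large one. Mrps18c read 4.41, 4.41 and 4.45 with ADP, against 4.31, 4.32 and 4.202 in control cells. ADP arrays were above all control arrays, and the difference was 0.14 ± 0.095 (adjusted p = 0.61). Mrps18b read 4.44, 4.54 and 4.62 with ADP, against 4.50, 4.50 and 4.67 in control cells, with overlapping groups and a difference of −0.025 ± 0.11 (adjusted p = 0.94).

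Mrps12 and Mrps7 belong to the conserved core of the small subunit. Mrps12, of the decoding centre, read 4.40, 4.23 and 4.36 with ADP, against 4.28, 4.19 and 4.35 in control cells, and differed by 0.055 ± 0.10 (adjusted p = 0.86). Mrps7, of the subunit's head, read 4.21, 4.59 and 4.66 with ADP, against 4.36, 4.41 and 4.75 in control cells, and differed by −0.0208 ± 0.17 (adjusted p = 0.97). In both, the groups overlapped. Mrps36, named as a ribosomal protein but known in mammals as a component of the 2-oxoglutarate dehydrogenase complex, differed by 0.0955 ± 0.11 (adjusted p = 0.77).

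In median size, the members' levels differed more between slides than between groups, as did those of all features. The slide difference, from the fit with the slide as a block, was 0.1506 for members and 0.2215 for all features. The group difference, from the fit without a block, was 0.0738 and 0.1562. As the groups were split unevenly over the slides, the group difference without a block carries part of the slide difference. On slide 2 the members stood a median of 0.1152 above slide 1 with the groups held apart, and 56 of the 75 were higher there. Over all features the median was 0.0487 and 10988 of 19575 were higher. Within slide 1 the median difference between ADP and control was 0.0546 and 49 members were above 0, whereas within slide 2 it was −0.0901 and 18 were above 0. Over all 19575 features the medians were 0.0097 within slide 1 (10172 above 0) and −0.0304 within slide 2 (8867 above 0). Each within-slide value rests on 3 arrays and has no test. By gene, 42 members had the same sign on both slides, 17 higher and 25 lower, while 32 were higher on slide 1 and lower on slide 2 and 1 was the reverse.

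**Figure D3:**
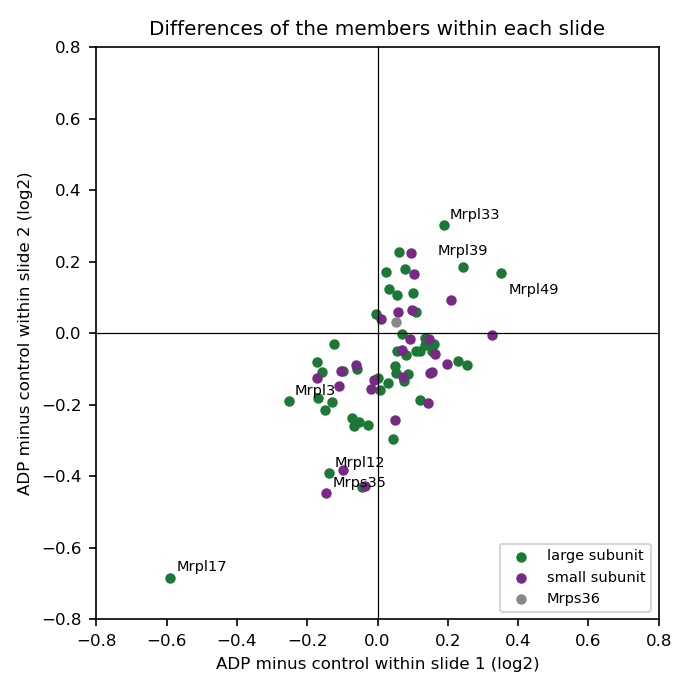
Difference of each member, ADP minus control in log2 signal, within slide 1 (x axis, 1 ADP against 2 control arrays) and within slide 2 (y axis, 2 ADP against 1 control array), coloured by subunit. The lower right quadrant holds the 32 genes that were higher on slide 1 and lower on slide 2, the lower left the 25 lower on both and the upper right the 17 higher on both; Mrpl17 lies apart at −0.59 and −0.68.

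With the slide as a block, the median difference of the members was 0.0032 and 0 were called, as over all features (0.0%). Unadjusted p was under 0.05 for 5 members, 2 higher and 3 lower, or 6.67%, while 24.3% of all features passed that threshold. Across the 21 settings tried, 28 of the 75 members kept one sign, 16 of them positive and 12 negative.

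Where a gene was read by several probes, most agreed closely. Of 24 such genes, 21 had probes within 0.2 of each other in the difference, and the median gap was 0.0847. Probes of 8 genes fell on both sides of 0, and in 0 genes did probes reach an unadjusted p under 0.05 in opposite directions. The 3 genes with wider gaps were Mrpl39, Mrpl49 and Mrpl9.

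The Mrpl39 probe used above lies at chr16:84718547-84718606 on the minus strand, and a second probe lies further along the transcript's direction at chr16:84717975-84718034. The second probe read −2.34, −2.56 and −2.48 with ADP, against −2.48, −2.40 and −2.25 in control cells, a difference of −0.0808 ± 0.12 with overlapping groups. Its signal cleared background on every array. For Mrpl49, the main probe lies at chr19:6053882-6053941 and the second at chr19:6054680-6054739, both on the minus strand. The second read 1.41, 1.60 and 1.49 with ADP, against 1.42, 1.42 and 1.69 in control cells, a difference of −0.0102 ± 0.12. The 2 genes with the highest differences in the fit without a block therefore had them on one probe of the pair.

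Mrpl9 was the opposite case. Its main probe, at chr3:94252112-94252171 on the plus strand, differed by −0.0016 ± 0.15 (adjusted p = 0.998). A second probe at chr3:94254157-94254216 cleared background on 3 ADP arrays and on 0 control arrays, with −4.44, −4.23 and −4.09 in ADP cells, against −4.85, −4.91 and −4.66 in control cells. The control level was not measured, so no firm fold can be given. The ADP mean lay 1.42-fold above a floor of −4.76, set by the lowest signals that pass as well above background. Control replicate 3 itself read above that floor, so 1.42-fold is not a lower bound of the difference. The probe entered through the ADP arrays alone, so this value is a description with no test. It is near the detection limit, and which transcript it reads was not examined.

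Proteins of the mitoribosome that carry other names on this array, listed together with the membrane insertase Oxa1l, were measured as well, and again none was called. The list held 8 genes, with a median of −0.0361 (0.0413 in unscaled signal), and 2 of the 8 were above 0. With the slide block the median was −0.1101, and it was −0.0431 within slide 1 and −0.1377 within slide 2. Dap3, a GTP-binding protein of the small subunit, differed by 0.0504 ± 0.0995. Of other small-subunit proteins, Chchd1 differed by 0.0551 ± 0.0933, Aurkaip1 by −0.0419 ± 0.0912 and Ptcd3, a pentatricopeptide repeat protein, by −0.0995 ± 0.10. In the large subunit, Gadd45gip1 differed by −0.0055 ± 0.17, Mrpl58, a peptidyl-tRNA hydrolase listed on the array as Ict1, by −0.0303 ± 0.12 and Mrpl57, listed as Mrp63, by −0.10 ± 0.0968. Oxa1l, which is not a ribosomal protein but receives new chains at the inner membrane, read 3.56, 3.94 and 3.73 with ADP, against 3.96, 3.84 and 4.30 in control cells. Its groups overlapped, the difference was −0.29 ± 0.16 (adjusted p = 0.54), and it was −0.34 on slide 1 and −0.46 on slide 2.

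Factors that build and run the mitoribosome had medians near 0 in the fit without a block. Of 25 measured assembly factors and rRNA-modifying enzymes, 13 were above 0 and the median was 0.0004 (−0.0254 with median scaling), with 3 at an unadjusted p under 0.05 and 0 called. Without the block, the smallest p was that of Mtg1, a GTPase of large-subunit assembly. It read 1.51, 1.69 and 1.39 with ADP, against 1.93, 2.00 and 1.99 in control cells. Its groups were well apart, and the difference was −0.45 ± 0.11 (limma, unadjusted p = 0.00653, adjusted p = 0.26), with −0.46 on slide 1 and −0.45 on slide 2. Of 14 translation factors, 7 were above 0 and the median was −0.0101 (0.0673 in unscaled signal). With the slide block it was −0.0491 and 5 were above 0. Guf1, a GTPase related to a bacterial elongation factor, read −1.29, −1.45 and −1.34 with ADP, against −0.9951, −1.04 and −0.99 in control cells, without overlap and with a difference of −0.35 ± 0.0977 (unadjusted p = 0.00975, adjusted p = 0.27).

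Genes for mitochondrial DNA transcription and replication had a median of −0.1218, with 4 of 9 above 0. Among them Mgme1, an exonuclease of mitochondrial DNA maintenance, was higher with ADP by 0.34 ± 0.12 without overlap (adjusted p = 0.33). The transcription factors and coactivators that control nuclear genes for mitochondria had a median of 0.0071 over 9 genes (−0.0187 with median scaling). The smallest p in this list belonged to Myc, which differed by −0.47 ± 0.28 with overlapping groups (adjusted p = 0.57).

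Beside these, 3 larger lists were set next to the family. Of 83 genes of the respiratory chain and ATP synthase, 74 were above 0 and the median was 0.126, with 0 called. An unadjusted p under 0.05 was reached by 2 (2.41%, against 12.7% of all features). The median was 0.0563 with the slide block (64 above 0), 0.0547 after quantile normalization and 0.0782 to 0.183 when 1 array was left out (lowest without ADP replicate 3). Ndufb1, a complex I subunit, had the smallest p, with a difference of 0.35 ± 0.12 (adjusted p = 0.31). Of 79 cytosolic ribosomal protein genes, 69 were above 0 with a median of 0.1206 (−0.037 after quantile normalization) and 0 had an unadjusted p under 0.05. Its median was −0.0063 with the slide block, and −0.0294 and 0.0112 within slides 1 and 2. It ranged from 0.0435 without ADP replicate 3 to 0.24 without ADP replicate 1 or control replicate 3. The gene with the smallest p there was Rpl28, at 0.39 ± 0.23 (adjusted p = 0.57), which was 0.57 within slide 1 and −0.0958 within slide 2. Of 28 genes of ribosome biogenesis in the nucleolus, 3 were above 0 and the median was −0.2119, with 0 called. An unadjusted p under 0.05 was reached by 4 (14.3%), all lower, which is near the 12.7% of all features. With the slide block 16 of the 28, or 57.1%, had an unadjusted p under 0.05, all lower, against 24.3% of all features. The median was −0.1968 within slide 1 and −0.3871 within slide 2, and −0.1302 without control replicate 3. Ppan, an assembly factor of the cytosolic large subunit, read 2.28, 2.39 and 2.20 with ADP, against 2.68, 2.57 and 2.60 in control cells, a difference of −0.32 ± 0.10 without overlap (unadjusted p = 0.0183, adjusted p = 0.30). The counts and medians are descriptions, and no difference between the lists was tested.

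**Figure D4:**
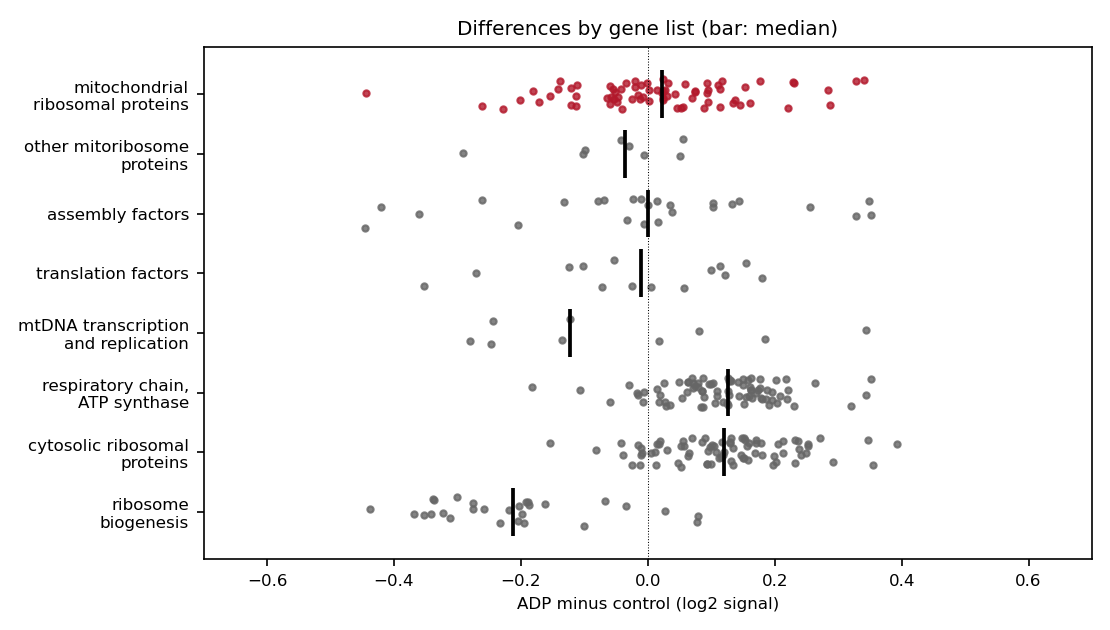
Difference, ADP minus control in log2 signal (x axis), of each measured gene in 8 lists (rows), with black bars at the medians. The median is 0.0225 for the mitochondrial ribosomal proteins (red; −0.0032 with median scaling), 0.126 for the respiratory chain and ATP synthase (0.0563 with the slide block), 0.1206 for cytosolic ribosomal proteins (−0.037 after quantile normalization) and −0.2119 for ribosome biogenesis. One respiratory-chain feature, Ndufa11b, lies beyond the axis at −2.66 (unadjusted p = 0.267), where control replicate 2 read 10.09, against 1.57 to 2.07 on the other arrays.

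The members are spread over 17 chromosomes, with the highest numbers on chromosomes 11 (10 genes), 17 (8 genes), 6 (7 genes) and 7 (6 genes). Promoter windows, from 250 bases before to 50 bases after a gene's start, were taken from RefSeq on GRCm38.p6 for 66 of the 75 members and for 17491 genes in all. They were searched on both strands for exact matches to motifs known from housekeeping and mitochondrial genes. The core of the NRF1 site, GCATGCGC, was in 12.1% of the member windows and in 3.93% of all windows, and the full palindromic site, which is the core with GC before it, in 4.55% (3 of 66) and 1.47%. The ETS site CCGGAAGT was in 18.2% of member windows and 5.69% of all windows, and the YY1 site AAGATGGC in 18.2% and 3.57%. The Sp1 site GGGCGG was in 33 of 66 member windows and 49.2% of all windows, and the E-box CACGTG in 7.58% and 8.91%. Median GC content was 58.17% in member windows and 56.33% in all. A match describes the letters of a window, and nothing follows from it about binding.

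The windows of the 3 members with the highest positive difference among those matched, of Mrpl17 with the lowest, and of Mrps12 are printed to show these letters in place. Capitals mark matches to the NRF1 site or its core, to ETS and to YY1 on either strand; sequences run 5′ to 3′ along the gene's strand and are those of RefSeq on GRCm38.p6.
Mrpl39, chr16:84735195-84735494, minus strand: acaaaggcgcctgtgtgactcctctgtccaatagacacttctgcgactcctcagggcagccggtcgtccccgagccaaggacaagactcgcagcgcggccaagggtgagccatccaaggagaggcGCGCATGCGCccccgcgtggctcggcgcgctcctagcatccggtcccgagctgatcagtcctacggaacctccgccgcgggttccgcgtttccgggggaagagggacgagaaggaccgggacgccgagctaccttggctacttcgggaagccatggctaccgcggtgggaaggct
Mrpl49, chr19:6057706-6058005, minus strand: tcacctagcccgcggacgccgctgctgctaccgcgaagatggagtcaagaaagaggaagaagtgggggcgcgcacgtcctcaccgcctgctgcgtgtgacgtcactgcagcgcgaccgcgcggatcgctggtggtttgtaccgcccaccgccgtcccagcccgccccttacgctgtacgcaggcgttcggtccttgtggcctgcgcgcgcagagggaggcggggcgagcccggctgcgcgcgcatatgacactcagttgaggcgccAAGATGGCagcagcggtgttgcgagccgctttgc
Mrpl33, chr5:31613701-31614000, plus strand: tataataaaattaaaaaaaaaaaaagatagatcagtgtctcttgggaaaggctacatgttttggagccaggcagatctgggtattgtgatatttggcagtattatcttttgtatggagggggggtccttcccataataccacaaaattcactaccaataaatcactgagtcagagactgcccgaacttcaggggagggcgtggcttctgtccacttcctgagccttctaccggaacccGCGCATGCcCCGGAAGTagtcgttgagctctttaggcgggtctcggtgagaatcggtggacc
Mrpl17, chr7:105811038-105811337, minus strand: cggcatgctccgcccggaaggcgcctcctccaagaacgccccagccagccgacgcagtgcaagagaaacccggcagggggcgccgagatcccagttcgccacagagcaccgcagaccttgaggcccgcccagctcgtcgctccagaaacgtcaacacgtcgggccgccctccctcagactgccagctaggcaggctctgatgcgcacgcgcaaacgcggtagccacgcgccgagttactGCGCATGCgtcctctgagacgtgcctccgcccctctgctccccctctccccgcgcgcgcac
Mrps12, chr7:28741772-28742071, minus strand: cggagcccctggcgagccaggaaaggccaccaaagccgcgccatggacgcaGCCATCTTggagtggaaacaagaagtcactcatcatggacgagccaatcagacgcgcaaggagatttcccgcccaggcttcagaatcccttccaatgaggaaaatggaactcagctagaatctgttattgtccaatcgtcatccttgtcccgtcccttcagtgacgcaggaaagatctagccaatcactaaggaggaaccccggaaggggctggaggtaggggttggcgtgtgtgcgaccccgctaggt
Mrpl39 holds the full NRF1 site, Mrpl33 the NRF1 core just before an ETS site, and Mrpl17 the NRF1 core, while Mrpl49 and Mrps12 hold a YY1 site. All but the Mrps12 window were picked by their difference, and no link between a motif and a difference was tested.

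Many of the genes start back to back with a neighbour. Of the 66 members with a window, 19, or 28.8%, had the start of another gene on the opposite strand within 500 bases, against 7.53% of all genes. In the 18 pairs so formed, all measured on both sides, 10 pairs differed in one direction and 8 in opposite directions. Mrpl46 and Mrps11, 1 gene of each subunit, start 42 bases apart and differed by 0.0238 and 0.0272. Mrps12 starts 147 bases from Sars2, the mitochondrial seryl-tRNA synthetase, which differed by −0.30 ± 0.10 (unadjusted p = 0.0263), where Mrps12 differed by 0.055. Mrpl43 starts 116 bases from Twnk, the mitochondrial DNA helicase, and they differed by −0.12 and −0.25. Mrpl49 starts 192 bases from Fau, which encodes a protein of the cytosolic ribosome. They differed by 0.33 ± 0.14 and 0.27 ± 0.24 (limma, unadjusted p = 0.0547 and 0.292), and by 0.26 and 0.0774 with the slide block. The second Mrpl49 probe differed by −0.0102. With 2 of the partners at an unadjusted p under 0.05, Sars2 and Eme1, the partners lay between −0.38 and 0.31. Of all features, 12.7% passed that threshold.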

How the data were processed

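RNA of 3 ADP-treated and 3 control macrophage samples was measured on one-colour arrays, 1 array per sample. Titles gave the groups. The deposited spot intensity is the processed signal of Agilent Feature Extraction 10.7.1.1, per the file headers, with background subtracted within the array. The deposited files also hold a table of intensity values, which were within 0.001 log2 of each probe's mean signal for 100% of probes and so are the authors' unscaled linear signal. Its medians were 20.7, 21.9 and 22.7 for ADP and 18.7, 20.3 and 22.0 for control.

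Here, control spots and outlier spots were left out and spots of a probe were averaged. Each array's 75th percentile of log2 signal over all spots was subtracted from its values. Probes well above background on all 3 arrays of a group were kept (26587), and each gene was represented by its brightest probe. Names were updated through a RefSeq table of GRCm38.p6, by which 26576 probes were named by accession, 2607 by symbol and 492 by synonym, while 26006 kept the file's name. ADP and control were compared with limma 3.58.1 in R 4.3.3 over 19575 features, two-sided, with no block. The number of arrays limits the precision, and the test code was tried on simulated data.

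Genes named are the 8 members with the smallest p in each direction, members fixed by role, those with discordant or 1-group probes, other mitoribosome proteins and the smallest p of each further list. Genes given for comparison of neighbours or subunit position (Mrpl23, Mrpl24, Mrpl45, Mrps21, Mrpl9, promoter partners and Ndufa11b) were named after their values were seen. The members and lists were chosen with earlier results of these data known. Alternatives covered scaling, background correction, probe filters, slide and replicate blocks, variance models and leaving out each array.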

Additional observations from a re-analysis of the deposited data

How the results depend on the processing

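No member was called under the settings tried, apart from Mrpl17 with the slide block and trended and robust variances (1 member and 1939 features called, against 0 and 0 otherwise). That fit also called Oxa1l (−0.40, adjusted p = 0.0269), Mtg1 (−0.46, adjusted p = 0.0285) and Ndufb1 (0.40, adjusted p = 0.0349) among the genes named. By list it called 4 of 25 assembly factors, 7 of 28 ribosome biogenesis genes, 1 of 9 mitochondrial DNA genes, 2 of 83 respiratory-chain genes, 2 of 8 macrophage markers and 0 of 79 cytosolic ribosomal protein genes, against 9.91% of all features. Within slide 2 the medians were −0.0901 for members (18 of 75 above 0), −0.0857 for the large subunit, −0.1377 for other mitoribosome proteins, −0.1276 for assembly factors, −0.2494 for mitochondrial DNA genes, −0.3871 for ribosome biogenesis and 0.0491 for the respiratory chain. Within slide 1 they were −0.0011 for mitochondrial DNA genes, −0.1247 for regulators and 0.0775 for the respiratory chain. With the slide block, with or without trended variances, regulators stood at −0.0995 and the respiratory chain at 0.0563, and with the block and quantile normalization these were −0.0954 and 0.0456, and mitochondrial DNA genes −0.0843. Unscaled values gave 0.0858 for the large subunit, −0.0444, 0.0845 and 0.2034 for these 3 lists in the order mitochondrial DNA, regulators and respiratory chain, and quantile normalization gave 0.0547 for the respiratory chain. The cause was not tested.

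Leaving out 1 array at a time gave medians of −0.0272 to 0.071 for members (31 to 54 of 75 above 0), 0.0435 to 0.2393 for cytosolic ribosomal proteins, −0.2808 to −0.1302 for ribosome biogenesis and −0.1638 to −0.0259 for mitochondrial DNA genes (lowest without control replicate 1, and −0.0738 without ADP replicate 3 and −0.0259 without control replicate 3), −0.0389 to 0.0845 for regulators (highest without ADP replicate 1) and 0.0782 to 0.183 for the respiratory chain (lowest without ADP replicate 3). Single genes near 0 changed sign. Without 1 array, Mrps18b ranged from −0.0663 to 0.0301, Mrps7 from −0.1061 to 0.1162, Mrpl10 from −0.0395 to 0.0495, Mrpl11 from −0.0075 to 0.1478, Gadd45gip1 from −0.1058 to 0.1383 and Mrpl58 from −0.0999 to 0.0645. Within slide 2 the signs of Mrps18a (−0.0508), Mrps12 (−0.0582), Mrps30 (−0.135), Mrpl10 (−0.1132), Mrpl11 (−0.0917), Dap3 (−0.0024) and Rpl28 (−0.0958) turned, and with the slide block those of Mrps30 (−0.0295), Mrpl10 (−0.0131) and Mrpl11 (−0.0208). Unscaled values turned Mrps18b (0.0524), Mrps7 (0.0566), Aurkaip1 (0.0355), Gadd45gip1 (0.0719) and Mrpl58 (0.0471). Median scaling turned Mrpl10 (−0.0243), quantile normalization Chchd1 (−0.0081) and the mean of probes Aurkaip1 (0.0185).

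The replicate number as a block left the median of the members at 0.0225 with 0 called, since the block alters the error and not the difference. Whether the numbers pair the samples could not be told from the arrays. Deviations of same-numbered samples from their group means correlated at 0.42, −0.40 and 0.43 over genes, which do not count as replicates. Of the 3 ADP samples only replicate 3 correlated best with its own number. The correlations followed the slides, however. ADP replicate 1 correlated at 0.42 and 0.45 with controls 1 and 2, and ADP replicates 2 and 3 at 0.47 and 0.43 with control 3. ADP and control samples on different slides correlated negatively, and the samples numbered 2 lay on different slides. Signals near background, such as the second Mrpl9 probe, give no firm difference.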
